A study of Homo sapiens with 9 samples.

Results

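The libraries compared here carried one of a pair of short hairpin RNAs against AHR, 3 with shAHR#3 and 3 with shAHR#2, and make 6 of the 9 RNA sequencing libraries of the series. They were chosen by the genotype in the deposited labels, and every gene in the count table was considered. The cells were MDA-MB-231, an established human triple-negative breast cancer line, grown as proliferating cultures in serum-supplemented medium. In the study's methods, hairpins were delivered by lentivirus, resistant cells were selected with puromycin, and the survivors were used as a pool, not as clones. The other 3 libraries carried pLKO-GFP, a non-targeting vector control, and serve here only as a reference level. Nothing in the labels says whether the replicates of a group came from separate transductions, so the p-values measure the spread between these libraries, which may be technical.

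The aryl hydrocarbon receptor, encoded by AHR, is a transcription factor activated by small aromatic ligands, among them environmental pollutants and products of tryptophan breakdown. In the cytosol it is held by a chaperone complex that includes HSP90 and p23. With ligand it enters the nucleus, pairs with ARNT and induces genes of xenobiotic metabolism such as CYP1A1 and CYP1B1, together with its own repressors. Hairpins against the same gene share the intended target, and a direct comparison asks on which genes the cells that carry them were nevertheless different.

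The 6 hairpin libraries held between 15991396 and 20374460 counts, and genes that passed the filter on low counts took 99.9% of them. Levels are given as CPM, counts scaled to a common library size with the TMM factors of edgeR, and a gene is called where the adjusted p of edgeR's quasi-likelihood test was under 0.05. The first 2 principal components separated the 3 groups, with the replicates of each close together. By chi-square per degree of freedom between pairs of replicates, 2 libraries lay further from their group. These were pLKO-GFP replicate 2 (3.73 and 4.15, against 1.82 for the other pair) and shAHR#3 replicate 3 (3.69 and 3.28, against 1.89). Mitochondrially encoded genes took 8.41% to 8.93% of the counts with shAHR#2 and 7.74% to 7.92% with shAHR#3. The line carried its mesenchymal markers, with VIM, CD44, AXL, CAV1 and MSN each at 10673 counts or more in every library, while the basal keratins KRT5, KRT14 and KRT17 had 2 counts or fewer per library. Summed over the 12 listed genes, 10 of them tested, luminal breast markers were at 431 to 459 CPM with shAHR#2 and at 377 to 384 CPM with shAHR#3, against 266 to 288 CPM with pLKO-GFP. ESR1 had 4 counts or fewer per library and PGR none. The 12 blood cell markers summed to between 7.09 and 10.1 CPM in the hairpin libraries, with CD3E, MS4A1 and HBB at 0. Of the 10 tested markers of the line, 8 were lower with shAHR#3, among them AXL at -0.16 and MSN at -0.47 on the log2 scale, and SPARC and EGFR were higher (median -0.25). Of the luminal markers 3 were higher and 4 lower, with KRT19 at -0.48, and of 5 tested blood markers CSF1R was higher by 0.93 and LYZ lower by -0.78. Over all genes tested, 21.9% were called higher and 20.4% lower with shAHR#3. The part of these markers in the results was not tested.

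Of 14274 genes tested, 6031 differed between the hairpins, or 42.3%. This share, set beside the gene lists below, depended on gene type. Of 12385 protein-coding genes 5703 were called, and of 1359 long noncoding RNAs 264. With shAHR#3, 3124 genes were higher (21.9% of those tested) and 2907 lower (20.4%). Most differences were small. The median absolute log2 fold change was 0.31 among called genes and 0.10 among the rest, and the median over all genes was 0.0068. A difference of at least 2-fold was found for 530 called genes (3.71%), of which 382 were higher (2.68%) and 148 lower (1.04%) with shAHR#3. Larger steps were more one-sided, with 111 genes higher and 14 lower by at least 4-fold, and 55 higher and 4 lower by at least 8-fold. The 4 are CSF3, IL1A, EPHA10 and RP11-717F1.2, named after their values were seen. The 3 libraries of one hairpin did not overlap with those of the other for 7078 genes (49.6%). Scaling by library size alone moved the median by 0.04 and gave 3725 higher and 2311 lower genes, so the balance between directions depends on the scaling. As a reference, 65.8% of genes were called between shAHR#2 and pLKO-GFP and 54.4% between shAHR#3 and pLKO-GFP. These share the control libraries.

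**Figure D1:**
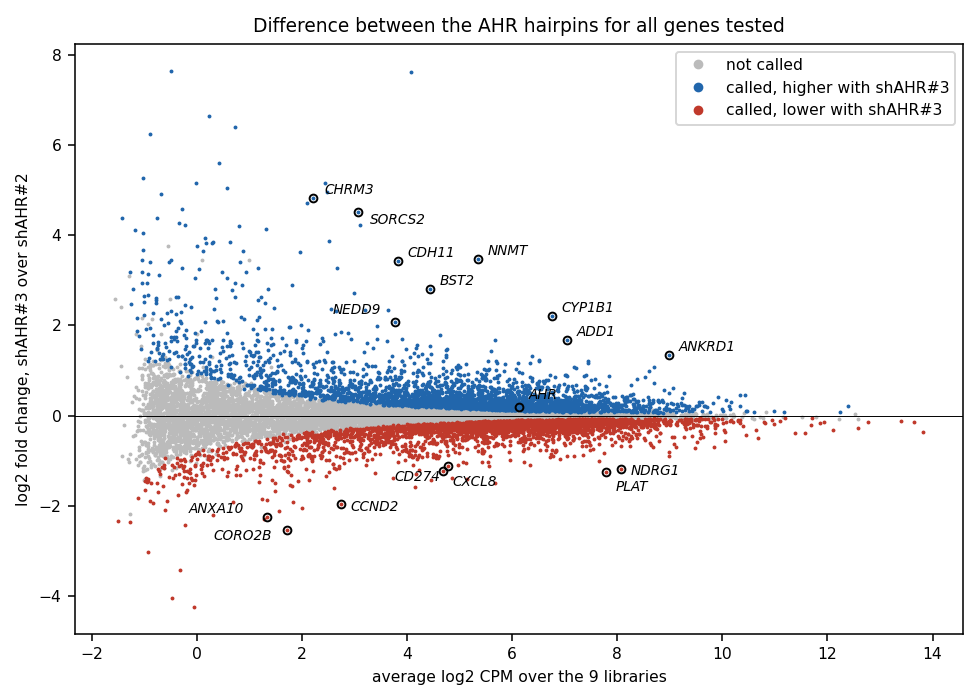
Log2 fold change of shAHR#3 over shAHR#2 (y) against average log2 CPM over the 9 libraries (x) for the 14274 tested genes, one point a gene, called genes in colour and a selection of named genes circled. CHRM3 lies at 4.83 and SORCS2 at 4.51, and among genes averaging 1 or more on the x axis none lies below CORO2B at -2.55.

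AHR itself (ENSG00000106546.14, chromosome 7, 16916359 to 17346152 on GRCh38) was reduced by both hairpins and slightly less by shAHR#3. AHR levels were 42.5, 40.4 and 41.9 CPM with shAHR#2 and 46.3, 52.1 and 44.5 CPM with shAHR#3. All 6 were far below the pLKO-GFP libraries at 114, 118 and 121 CPM, and the lowest shAHR#3 library lay above the highest shAHR#2 library. The log2 fold change of shAHR#3 over shAHR#2 was 0.19 (SE 0.05, adjusted p = 0.00283). One library decides this call. Without shAHR#3 replicate 2 the difference was 0.13 with an adjusted p of 0.0626, which does not pass the threshold.

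The CYP1 genes and NQO1, which AHR induces, were higher with shAHR#3. CYP1B1, a monooxygenase of hormones and polycyclic hydrocarbons, was counted at 26.3, 28.3 and 26.2 CPM with shAHR#2 and at 127, 125 and 121 CPM with shAHR#3. The pLKO-GFP libraries held 168, 173 and 165 CPM, so the shAHR#2 libraries were low and the shAHR#3 libraries sat near, but below, the control. CYP1B1 had a log2 fold change between the hairpins of 2.21 (SE 0.04, adjusted p = 3.96e-31), among the smallest p-values in the comparison. Its relative CYP1A1, the classical AHR target, was barely counted, at 0.536, 0.706 and 1.20 CPM with shAHR#2 and 2.11, 2.25 and 1.37 CPM with shAHR#3. Here the groups came close to each other, and the log2 fold change was 1.24 (SE 0.30, adjusted p = 7.25e-04). NQO1, a quinone reductase, was at 114 ± 2.10 CPM with shAHR#2, 184 ± 1.12 CPM with shAHR#3 and 301 ± 4.45 CPM with pLKO-GFP (SD, n = 3 each), a log2 fold change between the hairpins of 0.69 (SE 0.03, adjusted p = 1.89e-20).

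Other members of the pathway went both ways. Of 22 genes on the AHR pathway list, 17 were tested, 6 were higher with shAHR#3 and 7 lower (76.5% called, against 42.3% of all genes). Their median log2 fold change was -0.03, or 0.01 with scaling by library size alone. ARNT2, a partner protein of the ARNT family, was higher by 0.40 (SE 0.07) and SLC7A5, a carrier that imports tryptophan and kynurenine, by 0.32 (SE 0.03). TIPARP, an AHR target that in turn restrains the receptor, was lower, at 95.4 ± 4.12 CPM with shAHR#2 and 81.8 ± 2.51 CPM with shAHR#3 (SD, n = 3 each; log2 fold change -0.22, SE 0.04, adjusted p = 2.11e-05). Its control level was 92.5 ± 3.32 CPM. Against pLKO-GFP, TIPARP did not differ detectably with shAHR#2 (log2 fold change 0.04, adjusted p = 0.344). With shAHR#3 it was lower than the control (-0.18, adjusted p = 2.45e-04). ALDH3A1, an aldehyde dehydrogenase known as an AHR target, was at 28.3, 28.8 and 27.6 CPM with shAHR#2 and 17.5, 18.8 and 19.8 CPM with shAHR#3, and the 3 control libraries were between 3.24 and 3.75 CPM. Both hairpin groups were thus above the control, shAHR#2 the more so (log2 fold change between the hairpins -0.59, SE 0.07). KYNU, which degrades kynurenine, was lower by -0.26 (SE 0.07).

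The chaperone partners differed little. PTGES3, which encodes p23, had a log2 fold change of -0.21 (SE 0.03) and HSP90AB1 of -0.13 (SE 0.02). HSP90AA1 at -0.06 and ARNT at -0.12 passed narrowly, with adjusted p of 0.0458 and 0.0469, and each lost its call under more than 8 of the 16 alternatives tried. NFE2L2, the regulator of the oxidative stress response (0.01, adjusted p = 0.91), AFMID (0.11, adjusted p = 0.309) and TDO2 (-0.03, adjusted p = 0.965) did not pass.

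**Figure D2:**
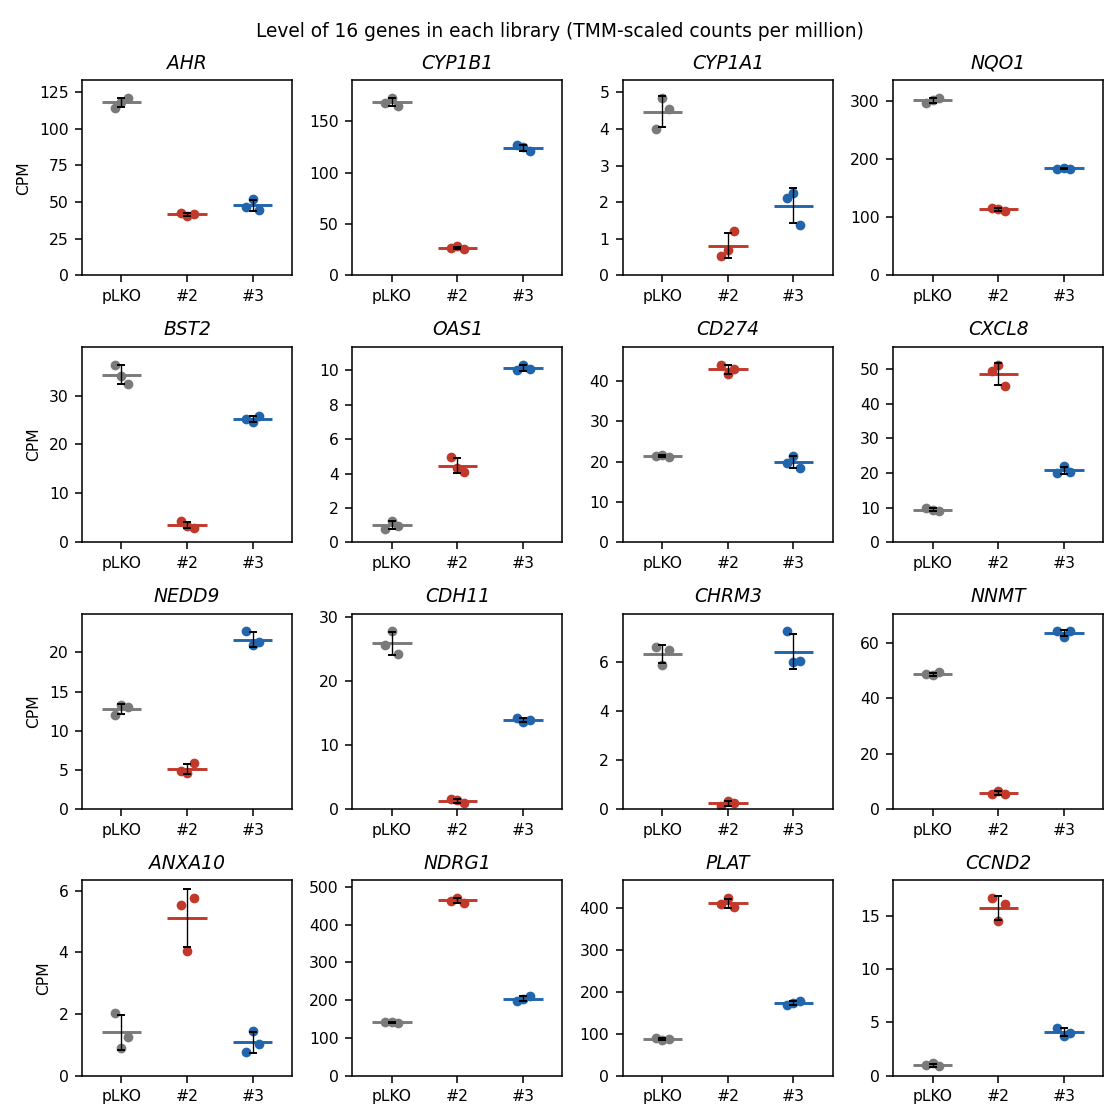
TMM-scaled CPM (y, linear axis from 0) of 16 genes in each of the 9 libraries, grouped as pLKO-GFP, shAHR#2 and shAHR#3 (x). Points are libraries, the wide bar is the group mean and the error bar the SD (n = 3); CYP1B1, BST2, CHRM3 and NNMT are lowest in the shAHR#2 libraries, whereas NDRG1, PLAT and CCND2 are highest there.

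Several of the widest differences concerned genes that were nearly lost with shAHR#2 and present with shAHR#3. CHRM3, a muscarinic acetylcholine receptor, was at 7.25, 5.99 and 6.05 CPM with shAHR#3 and at 6.61, 5.89 and 6.48 CPM with pLKO-GFP. In the shAHR#2 libraries it had 2 to 5 counts, against 117 to 141 counts in each shAHR#3 library. The ratio of the summed counts, corrected for library size, was 29.2 with an exact 95% counting interval of 16.1 to 59.0 (counting error only), and the fitted log2 fold change was 4.83 (SE 0.27, adjusted p = 2.42e-17). For SORCS2, a sorting receptor of the VPS10 family, the ratio was 23.5 (12.6 to 49.5), although shAHR#3 at 4.69 ± 0.686 CPM was itself below pLKO-GFP at 19.1 ± 0.814 CPM (SD, n = 3 each). The unnamed transcript RP11-80B9.1 had a ratio of 27.5 (13.1 to 69.2). CCBE1 and PDE1C, which also rank among the largest fitted differences, had 0 counts in every shAHR#2 library and at most 6 counts in any shAHR#3 library, so both groups were near the detection floor while pLKO-GFP was at 15.2 and 15.6 CPM.

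Taken strictly, 10 genes had 3 counts or fewer in all shAHR#2 libraries and at least 1 CPM in all shAHR#3 libraries, and no gene showed the opposite. The numbers depend on the floor, with 5 and 0 genes at a floor of 1 count and 34 and 5 genes at a floor of 10 counts. PAGE5, a cancer-testis antigen gene on chromosome X, was the highest, with 42 to 46 counts per shAHR#3 library against 0 or 1 per shAHR#2 library. SRGAP3, a GTPase-activating protein, had 33 to 40 counts against 1 to 3, and ZNF662, a zinc finger gene, 27 to 33 against 0 or 1. PCSK6, a proprotein convertase, had 24 to 31 counts against 0 or 1. It was at 0 or 1 count in the pLKO-GFP libraries as well, so the shAHR#3 libraries alone held more than 1 count. For CDH18, a cadherin with 0 counts in every shAHR#2 library, the level was at least 7.44-fold higher with shAHR#3, against a floor of 3 counts per library.

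NNMT, nicotinamide N-methyltransferase, combined a large difference with high counts. It was at 5.20, 6.61 and 5.44 CPM with shAHR#2 and at 64.1, 62.2 and 64.1 CPM with shAHR#3, with the control at 48.6, 48.2 and 49.3 CPM. The log2 fold change was 3.47 (SE 0.07, adjusted p = 3.53e-30), and the shAHR#3 libraries lay slightly above the control ones. ADD1, the membrane skeleton protein adducin 1, was low with both hairpins, at 36.8 ± 1.19 CPM with shAHR#2 and 118 ± 3.04 CPM with shAHR#3 against 237 ± 5.89 CPM with pLKO-GFP (SD, n = 3 each), a log2 fold change of 1.68 (SE 0.04) between the hairpins. ANKRD1, an ankyrin repeat protein known as a YAP target, was at 270, 272 and 275 CPM with shAHR#2 and 675, 714 and 683 CPM with shAHR#3 (log2 fold change 1.34, SE 0.03, adjusted p = 3.96e-31). RHOBTB3 was about 2.12-fold higher. By absolute CPM, PABPC1, which binds poly(A) tails, was also among the largest gains, with a log2 fold change of 0.45.

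In the other direction the differences were smaller. CORO2B, a coronin of the actin cytoskeleton, was at 4.56, 4.88 and 4.87 CPM with shAHR#2, 0.514, 1.13 and 0.781 CPM with shAHR#3 and 3.50, 3.95 and 5.22 CPM with pLKO-GFP. Only the shAHR#3 libraries were low (log2 fold change -2.55, SE 0.24, adjusted p = 1.69e-11). F2RL3, a thrombin receptor whose methylation is a known mark of smoking, and ENTPD3, an ectonucleotidase, were lower by -2.31 (SE 0.24) and -2.11 (SE 0.20). SPNS2, the exporter of sphingosine 1-phosphate, was at 9.94 ± 1.51 CPM with shAHR#2, 2.38 ± 0.631 CPM with shAHR#3 and 0.258 ± 0.0928 CPM with pLKO-GFP (SD, n = 3 each). CCND2, cyclin D2, followed the same order, at 16.7, 14.5 and 16.1 CPM, then 4.48, 3.74 and 4.00 CPM, then between 0.861 and 1.15 CPM in the control. Its log2 fold change between the hairpins was -1.96 (SE 0.12, adjusted p = 1.82e-16), and both hairpin groups lay above the control libraries.

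Interferon-stimulated genes encode antiviral effectors that are induced by type I interferon through a complex that includes STAT2 and IRF9, and they touch the question of the study, which concerned AHR and interferon production. Of 63 tested members, 28 were higher with shAHR#3 and 7 lower, with a median log2 fold change of 0.11, beside 21.9% higher, 20.4% lower and a median of 0.0068 over all genes. BST2, IFIT1 and IFI44L are shown with the part of their promoter that holds the core of the interferon-stimulated response element, GAAANNGAA. OAS1, GBP1 and IFI44, which the naming rule also picks, are not shown. The matches below are therefore those of selected genes and say nothing about the list. Capitals mark the motif on either strand, and sequences and coordinates are those of RefSeq on GRCh38.p14, read along the strand of the gene.
BST2 (chr19:17405736-17405770, minus strand): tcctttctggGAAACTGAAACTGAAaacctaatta
IFIT1 (chr10:89392498-89392539, plus strand): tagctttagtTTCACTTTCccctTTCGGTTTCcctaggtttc
IFI44L (chr1:78620274-78620393, plus strand): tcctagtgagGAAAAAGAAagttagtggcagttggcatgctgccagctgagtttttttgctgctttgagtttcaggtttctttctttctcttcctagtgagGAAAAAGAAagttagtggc
Each holds 2 matches in the bases before its start, overlapping in BST2, on the opposite strand in IFIT1 and as a repeat of the same letters in IFI44L. The motif is found in 8.11% of the 35116 promoter windows in the table, in 6.71% of the 15329 windows of tested genes, in 7.59% of windows of genes called 2-fold or more above shAHR#2 and in 10.7% of those 2-fold or more below. The higher and lower windows belong to 256 and 88 genes, and a gene with several windows counts more than once.

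Those 3 genes nonetheless did not share a direction. BST2, tetherin, which holds budding virions at the cell surface, was at 4.24, 3.40 and 2.97 CPM with shAHR#2, 25.3, 24.6 and 25.7 CPM with shAHR#3 and 36.3, 34.0 and 32.5 CPM with pLKO-GFP. The shAHR#2 libraries stood alone at the low end, and the log2 fold change between the hairpins was 2.81 (SE 0.11, adjusted p = 1.06e-22). IFIT1, a sensor of foreign RNA ends, was at 47.0, 40.0 and 44.2 CPM with shAHR#2 and at 88.7, 95.5 and 85.1 CPM with shAHR#3, with the control in between at 65.7 to 67.3 CPM. Its log2 fold change was 1.03 (SE 0.05), so against pLKO-GFP it was -0.61 with shAHR#2 and 0.43 with shAHR#3. IFI44L was at 5.20, 4.82 and 5.31 CPM with shAHR#2 and 1.90, 2.61 and 1.22 CPM with shAHR#3, a log2 fold change of -1.42 (SE 0.21, adjusted p = 3.87e-07), with the control at 0.962 to 1.30 CPM.

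OAS1, which makes the activator of RNase L, was highest with shAHR#3, at 10.0, 10.3 and 10.1 CPM, followed by shAHR#2 at 4.93, 4.30 and 4.11 CPM and pLKO-GFP at 0.791 to 1.25 CPM (log2 fold change between the hairpins 1.18, SE 0.13). MX2, an inhibitor of viral nuclear import, was higher by 1.20 (SE 0.29, adjusted p = 9.94e-04) and EPSTI1 by 0.98 (SE 0.20). ISG15, a ubiquitin-like modifier, was at 12.5 ± 0.274 CPM with shAHR#2 and 18.1 ± 1.62 CPM with shAHR#3 (SD, n = 3 each; log2 fold change 0.54, SE 0.09). Besides IFI44L, the lower members were GBP1, IFI44, SP100, XAF1, TRIM25 and LGALS3BP, between -0.37 and -0.16 on the log2 scale. XAF1 overlapped between the groups. MX2, with 11 to 50 counts per hairpin library, EPSTI1, ISG15 and the last 4 of the lower members lie outside the naming rule and were chosen after their values were seen.

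Of 31 tested genes of nucleic acid sensing and interferon signalling, 11 were higher and 4 lower (48.4% called, against 42.3% of all genes). The median log2 fold change was 0.12, and no gene differed by as much as 2-fold. TBK1, the kinase that activates IRF3, was at 37.6 ± 0.999 CPM with shAHR#2, 51.6 ± 2.54 CPM with shAHR#3 and 59.3 ± 2.90 CPM with pLKO-GFP (SD, n = 3 each; log2 fold change between the hairpins 0.46, SE 0.05). TLR3, a receptor of double-stranded RNA, was higher by 0.41 (SE 0.12, adjusted p = 0.00539) and STAT2 by 0.32 (SE 0.04). TLR3 lost its call without shAHR#3 replicate 2 (0.32, adjusted p = 0.0513). The 4 lower genes were IFNAR1, a chain of the type I interferon receptor, at -0.50 (SE 0.04), DICER1 at -0.38 (SE 0.03), CGAS, the sensor of cytosolic DNA, at -0.23 (SE 0.04), and IRF3 at -0.19 (SE 0.06). STING1, the adaptor downstream of CGAS and named here for the study's question outside the naming rule, was at 8.31, 8.99 and 6.39 CPM with shAHR#2 and 7.51, 8.19 and 10.4 CPM with shAHR#3. These overlapped, and the difference of 0.14 (SE 0.15, adjusted p = 0.476) did not pass.

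NF-kB target genes and inflammatory mediators leaned the other way. NF-kB is the transcription factor family behind much of the cytokine response, held in check by NFKBIA and TNFAIP3. Of 54 tested members, 30 were lower with shAHR#3 and 11 higher, with a median log2 fold change of -0.15, beside 20.4% lower and 21.9% higher over all genes. The NF-kB motif GGANTTTCC, on either strand, is in capitals below in promoters of 4 selected genes that hold a match. They therefore say nothing about the list. CD274, named with the immune checkpoint genes, also holds matches to GAAANNGAA, which are not shown. Positions are from RefSeq on GRCh38.p14, all on the plus strand.
CXCL8 (chr4:73740468-73740496): tgcaaatcgtGGAATTTCCtctgacataa
TNFAIP3 (chr6:137867182-137867210): acgtgactttGGAAAGTCCcgtggaaatc
CD274 (chr9:5450421-5450449): ccgaaggtcaGGAAAGTCCaacgcccggc
IL6 (chr7:22727118-22727146): atcaaatgtgGGATTTTCCcatgagtctc
The motif is in 1.64% of all windows, in 1.67% of those of tested genes, in 2.17% of windows of genes called 2-fold or more above shAHR#2 and in 4.1% (5 of 122 windows, which belong to 88 genes) of those 2-fold or more below. CXCL8, TNFAIP3 and CD274 were lower with shAHR#3 and IL6 was higher, so genes with a match went both ways.

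CXCL8, the neutrophil chemokine interleukin-8, was at 49.6, 51.2 and 45.0 CPM with shAHR#2 and at 20.1, 21.9 and 20.2 CPM with shAHR#3. Control libraries were at 9.77, 9.44 and 8.96 CPM, so both hairpin groups were above them and shAHR#2 further (log2 fold change between the hairpins -1.23, SE 0.07, adjusted p = 7.04e-18). TNFAIP3, the ubiquitin editor A20, was at 13.3 ± 0.521 CPM with shAHR#2, 6.24 ± 0.444 CPM with shAHR#3 and 8.71 ± 0.910 CPM with pLKO-GFP (SD, n = 3 each), and so lay on both sides of the control (log2 fold change -1.09, SE 0.11). PTX3, a pattern recognition protein, and CSF2, which encodes GM-CSF, were lower by -1.04 (SE 0.04) and -1.20 (SE 0.13). CXCL1 was lower by -0.84 (SE 0.10), with reads that its paralogs may share.

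The interleukin-1 genes were scarcely counted outside the shAHR#2 libraries. IL1A had 28 to 34 counts per shAHR#2 library and 0 to 8 per shAHR#3 library, a ratio of 11.2 with a counting interval of 5.82 to 24.1, and the control was also low, at 0 to 0.354 CPM. IL1B was at 1.93, 3.47 and 1.90 CPM with shAHR#2 against 0.360 to 0.614 CPM with shAHR#3, a log2 fold change of -2.20 (SE 0.33). BCL2A1, an anti-apoptotic NF-kB target, had 32 to 35 counts per shAHR#2 library against 6 to 9, a ratio of 5.46 (3.42 to 9.09). For CSF3, which encodes G-CSF, the low group was shAHR#3 alone, with 0 to 2 counts per library against 14 to 17 with shAHR#2 (ratio 18.6, interval 5.99 to 93.5). Its control libraries, at 0.734 to 1.05 CPM, overlapped with the shAHR#2 range of 0.886 to 1.03 CPM.

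Some cytokines were higher with shAHR#3. IL6 was at 4.13, 6.23 and 4.87 CPM with shAHR#2 and 9.82, 9.72 and 9.96 CPM with shAHR#3, a log2 fold change of 0.97 (SE 0.14, adjusted p = 3.04e-07), and the shAHR#2 libraries overlapped with the control at 3.95 to 5.77 CPM. IL18 was higher by 0.75 (SE 0.07) and IL15, a growth factor of natural killer cells, by 0.70 (SE 0.17). IL32 and CX3CL1 passed with log2 fold changes of 1.66 (SE 0.59) and 1.11 (SE 0.43), but were below 1.1 CPM in every hairpin library and overlapped between the groups. NFKBIA differed by only -0.12 (SE 0.04), and NFKB1 by the same amount.

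Immune checkpoint genes split. Of 22 tested, 7 were higher and 9 lower (72.7% called, against 42.3% of all genes), with a median log2 fold change of -0.08. CD274, which encodes PD-L1, was at 44.0, 41.8 and 43.0 CPM with shAHR#2, 19.6, 21.4 and 18.4 CPM with shAHR#3 and 21.4, 21.7 and 21.0 CPM with pLKO-GFP. Only the shAHR#2 libraries were raised, and the log2 fold change between the hairpins was -1.12 (SE 0.07, adjusted p = 7.71e-17). PDCD1LG2, its neighbour on chromosome 9 that encodes PD-L2, was at 6.11, 4.56 and 4.68 CPM and 1.90, 2.20 and 2.93 CPM, a log2 fold change of -1.13 (SE 0.19). NECTIN1, an adhesion molecule, was lower by -0.79 (SE 0.05). VSIR, which encodes VISTA, went the other way, from 4.95 ± 1.02 CPM with shAHR#2 to 14.2 ± 0.302 CPM with shAHR#3 (SD, n = 3 each; log2 fold change 1.50, SE 0.12), with pLKO-GFP at 10.2 ± 0.709 CPM. LGALS9, galectin-9, was higher by 0.96 (SE 0.22). TNFSF15 at 0.64 (SE 0.19) overlapped between the groups and lost its call without shAHR#2 replicate 1 (0.43, adjusted p = 0.0867) or shAHR#3 replicate 3 (0.42, adjusted p = 0.0893).

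Among 40 tested genes of antigen processing and presentation, 8 were higher and 12 lower (50% called, against 42.3% of all genes). The median log2 fold change was -0.06. CD74, the invariant chain of HLA class II, was at 39.0, 44.2 and 42.4 CPM with shAHR#2 and 75.6, 78.0 and 81.0 CPM with shAHR#3, all well below pLKO-GFP at 182, 194 and 200 CPM (log2 fold change between the hairpins 0.91, SE 0.05). The class II chains HLA-DPB1 and HLA-DPA1 were higher by 1.65 (SE 0.44) and 1.11 (SE 0.29), at levels below 2.5 CPM in every hairpin library, and counts of HLA genes are uncertain because close relatives can share reads. HLA-B passed at 1.04 (SE 0.23), yet its shAHR#3 libraries were at 7.61, 2.97 and 8.89 CPM, with replicate 2 inside the shAHR#2 range of 2.79 to 3.67 CPM. Cathepsin S, encoded by CTSS, was lower by -0.86 (SE 0.09), and HLA-E, a ligand of natural killer cell receptors, by -0.54 (SE 0.09).

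The cathepsin gene CTSB shows how far single libraries can decide a call. It was at 66.1, 35.4 and 5.63 CPM with shAHR#2 and 4.53, 4.40 and 41.5 CPM with shAHR#3, a spread within groups unlike that of the genes above. The fitted log2 fold change of -1.10 (SE 0.43, adjusted p = 0.0364) became -0.26 without shAHR#2 replicate 1, was lost with DESeq2 (adjusted p = 0.467) and ranged down to -3.04 across the alternatives.

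Integrins link the matrix to the cytoskeleton at focal adhesions, and the scaffold NEDD9 acts there with the kinases FAK and Src. Of 54 tested genes of this list, 18 were higher and 23 lower (75.9% called, against 42.3% of all genes). The median log2 fold change was -0.03, or 0.01 and 22 against 20 genes with scaling by library size alone. NEDD9 (chromosome 6, 11183298 to 11382348) was at 4.88, 4.56 and 5.88 CPM with shAHR#2, 22.7, 21.0 and 21.3 CPM with shAHR#3 and 12.0, 13.3 and 13.1 CPM with pLKO-GFP. The control fell between the hairpin groups, and their difference was 2.08 (SE 0.10, adjusted p = 3.09e-19) on the log2 scale. ITGB3, the integrin beta 3 chain, had the same order, at 7.38 ± 0.790 CPM, 23.9 ± 1.34 CPM and 12.0 ± 0.308 CPM (SD, n = 3 each; log2 fold change 1.70, SE 0.09). So did ITGA1, a collagen-binding alpha chain, at 25.5 ± 0.773 CPM, 68.7 ± 1.99 CPM and 48.8 ± 2.20 CPM (1.43, SE 0.05).

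PTK2B, a relative of FAK, and TNS1, a tensin, were higher by 1.40 (SE 0.23) and 1.23 (SE 0.23) with shAHR#3 but remained below the control with both hairpins. ITGA2, the other collagen-binding alpha chain on chromosome 5, ran against ITGA1. Its levels were 1118, 1099 and 1100 CPM with shAHR#2 and 673, 669 and 656 CPM with shAHR#3, against 360, 372 and 370 CPM with pLKO-GFP (log2 fold change between the hairpins -0.73, SE 0.02, adjusted p = 3.59e-24). ITGB8 was lower by -1.02 (SE 0.22) at under 4 CPM, and CAV2, a caveolin, by -0.65 (SE 0.03).

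Of 57 tested genes of the extracellular matrix and its proteases, 16 were higher and 26 lower (73.7% called, against 42.3% of all genes). The median log2 fold change was -0.06. PLAT, tissue plasminogen activator, was at 408, 422 and 401 CPM with shAHR#2, 169, 173 and 177 CPM with shAHR#3 and 90.0, 84.3 and 86.5 CPM with pLKO-GFP, a graded order without overlap (log2 fold change between the hairpins -1.25, SE 0.03, adjusted p = 1.08e-28). MMP14, a membrane-bound matrix metalloprotease, was at 762 ± 10.1 CPM with shAHR#2 and 412 ± 12.3 CPM with shAHR#3 (SD, n = 3 each; -0.89, SE 0.03). ADAMTS1 was lower by -1.05 (SE 0.12). ADAMTS6, also lower (-0.94, SE 0.24), was below its control level of 8.88 CPM with both hairpins. Among the higher genes, LUM was at 1.13 ± 0.132 CPM and LAMA1 at 0.811 ± 0.247 CPM with shAHR#3 (SD, n = 3 each; differences of 2.32, SE 0.48, and 2.29, SE 0.53, on the log2 scale). COL6A2, a chain of collagen VI, was at 26.1 ± 1.19 CPM with shAHR#2 and 45.4 ± 0.947 CPM with shAHR#3 (SD, n = 3 each; 0.80, SE 0.06).

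On the list of epithelial and mesenchymal state, 19 of 41 tested genes were higher and 9 lower (68.3% called, against 42.3% of all genes). The median log2 fold change was 0.13, and genes of either state were found on both sides. CDH11, a mesenchymal cadherin, was at 1.50, 1.41 and 0.886 CPM with shAHR#2 and 14.1, 13.5 and 13.8 CPM with shAHR#3, against 24.3 to 27.7 CPM in the control (log2 fold change 3.43, SE 0.15, adjusted p = 7.57e-21). TGFB2, a ligand that drives the mesenchymal state, was at 91.5 ± 2.89 CPM with shAHR#2 and 211 ± 3.90 CPM with shAHR#3 (SD, n = 3 each; 1.21, SE 0.03). In the latter it did not differ detectably from pLKO-GFP at 214 ± 6.49 CPM (log2 fold change -0.02, SE 0.03, adjusted p = 0.64). The receptor chain TGFBR2 moved in the opposite sense, at 862 ± 4.01 CPM and 533 ± 6.07 CPM (-0.69, SE 0.02). The epithelial cadherin CDH1 was low throughout and highest with shAHR#3, at 4.22, 3.68 and 4.59 CPM against 2.15, 1.73 and 1.52 CPM (1.20, SE 0.21), and the keratin KRT81 was higher by 1.04 (SE 0.04). CLDN1, a tight junction protein, and KRT19 were lower by -0.50 (SE 0.09) and -0.48 (SE 0.04).

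Annexins are calcium-dependent membrane-binding proteins, and S100 proteins are small calcium sensors often coupled to them. Of 20 tested, 7 were higher and 6 lower (65% called, against 42.3% of all genes). ANXA10 (chromosome 4, 168092537 to 168187736) was at 5.52, 4.05 and 5.76 CPM with shAHR#2 and 0.772, 1.43 and 1.03 CPM with shAHR#3, the latter overlapping with pLKO-GFP at 0.899 to 2.03 CPM. The log2 fold change was -2.24 (SE 0.25, adjusted p = 1.04e-09). S100P was higher with shAHR#3, at 5.14, 5.12 and 4.93 CPM against 1.34, 0.514 and 0.633 CPM (2.56, SE 0.25), with the control at 0.113 to 0.354 CPM. ANXA8, which has near-identical copies on chromosome 10, was higher by 2.12 (SE 0.28). S100A16 was lower by -0.75 (SE 0.03) and S100A4 higher by 0.34 (SE 0.03).

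**Figure D3:**
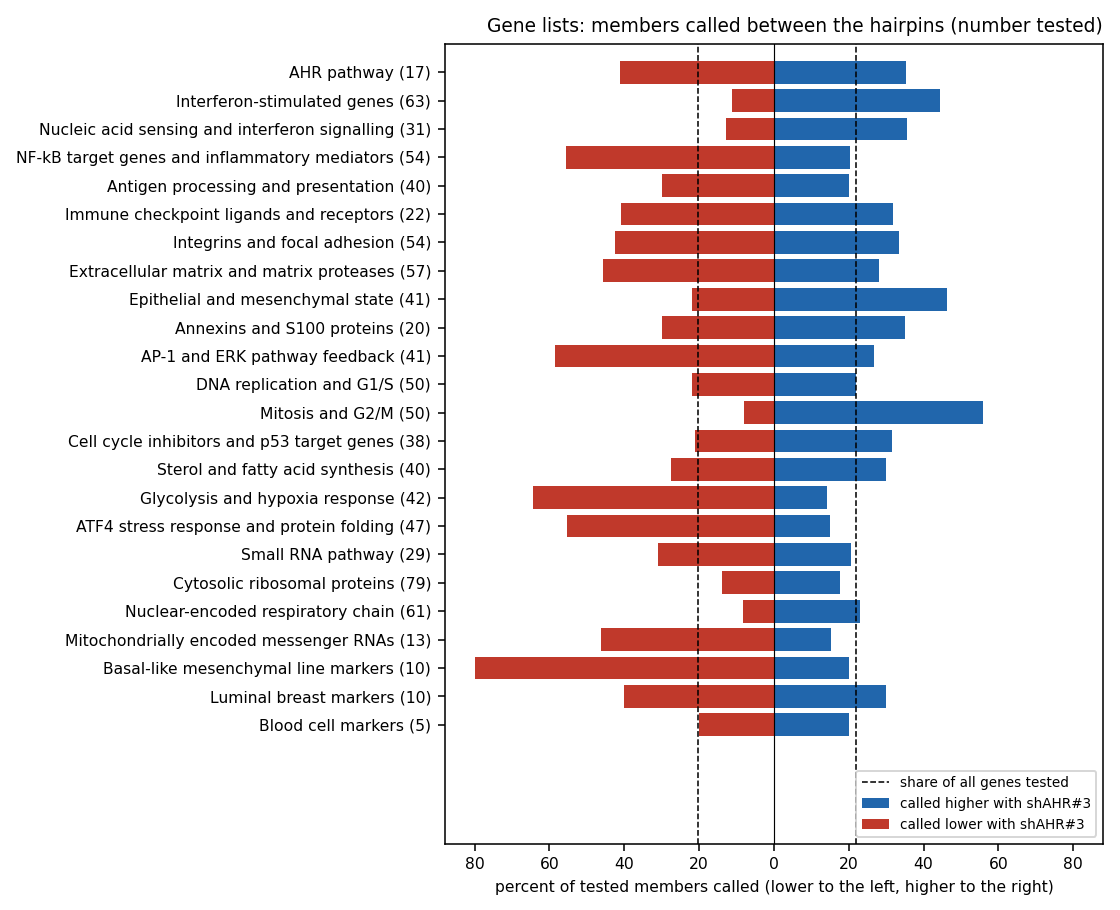
Percent of tested members called lower (bars to the left) or higher (bars to the right) with shAHR#3 than with shAHR#2 for 24 gene lists, with the number tested in brackets. Dashed lines are the shares over all tested genes, 20.4% and 21.9%; among lists with over 30 tested genes, the mitosis list extends furthest to the right, followed by the epithelial and mesenchymal and the interferon-stimulated lists, and the glycolysis and hypoxia list furthest to the left.

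AP-1 is the FOS and JUN family of transcription factors downstream of ERK. Of 41 tested genes of AP-1 and ERK feedback, 24 were lower and 11 higher (median log2 fold change -0.14), beside the same 20.4% and 21.9% over all genes. JUN was at 133 ± 5.94 CPM with shAHR#2, 78.4 ± 0.694 CPM with shAHR#3 and 88.7 ± 0.872 CPM with pLKO-GFP (SD, n = 3 each; log2 fold change between the hairpins -0.76, SE 0.04). LIF, a cytokine of the IL-6 family, was lower by -0.68 (SE 0.05) and EPHA4 by -0.71 (SE 0.09). FOS and JUND were higher, FOS at 5.45, 3.99 and 5.61 CPM against 1.13, 1.16 and 1.58 CPM (1.97, SE 0.21) and JUND by 0.92 (SE 0.07). AREG, a ligand of the EGF receptor, was at 29.0, 30.4 and 31.9 CPM with shAHR#2 and 67.2, 71.0 and 66.2 CPM with shAHR#3 (1.16, SE 0.05). EGFR itself was higher by 0.81 (SE 0.03), whereas MET, the receptor of hepatocyte growth factor, was lower, at 746 ± 13.1 CPM and 425 ± 5.46 CPM (-0.81, SE 0.03, adjusted p = 6.58e-25).

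Of 50 genes of mitosis and G2/M, 28 were higher with shAHR#3 and 4 lower (median log2 fold change 0.12), none by 2-fold, beside 21.9% higher and 20.4% lower over all genes. MKI67, the proliferation marker Ki-67, was at 744, 714 and 744 CPM with shAHR#2 and 1031, 963 and 937 CPM with shAHR#3, both below pLKO-GFP at 1141 to 1246 CPM (log2 fold change between the hairpins 0.41, SE 0.03). CDC25B and NEK2 were higher by 0.43 (SE 0.03) and 0.40 (SE 0.04). The lower genes were HMMR (-0.22, SE 0.08), BUB3 (-0.14, SE 0.03), ECT2 (-0.11, SE 0.03) and BIRC5 (-0.08, SE 0.03). HMMR lost its call without shAHR#2 replicate 1 (-0.12, adjusted p = 0.311) or shAHR#3 replicate 3 and with scaling by library size alone. DNA replication and G1/S showed no lean, with 11 of 50 higher and 11 lower (44% called, beside 42.3% of all genes) and a median of 0.01, from E2F1 at 0.41 (SE 0.05) to GINS4 at -0.46 (SE 0.05).

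Among cell cycle inhibitors and p53 target genes, 12 of 38 tested were higher and 8 lower (52.6% called, against 42.3% of all genes). The median log2 fold change was 0.07. PHLDA3, an inhibitor of AKT, was at 1.88, 2.25 and 1.58 CPM with shAHR#2 and 6.07, 4.96 and 6.93 CPM with shAHR#3, near pLKO-GFP at 6.63 to 7.74 CPM (1.66, SE 0.18). CCNG2, an unusual cyclin, was higher by 0.89 (SE 0.08) and BBC3, which encodes PUMA, by 0.79 (SE 0.18). BTG2 passed at 1.38 (SE 0.52) with overlapping libraries. PMAIP1, which encodes NOXA, was lower by -0.48 (SE 0.05) and BTG1 by -0.45 (SE 0.04). CDKN1A, the p53 target p21, is outside the naming rule and differed by -0.22 (SE 0.06).

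Genes of glycolysis and the hypoxia response were mostly lower with shAHR#3, 27 of 42 tested against 6 higher, with a median log2 fold change of -0.20, beside 20.4% lower and 21.9% higher over all genes. NDRG1, a hypoxia- and stress-induced protein, was at 463, 470 and 458 CPM with shAHR#2, 198, 202 and 210 CPM with shAHR#3 and 143, 141 and 139 CPM with pLKO-GFP (log2 fold change between the hairpins -1.19, SE 0.03, adjusted p = 5.62e-29). BNIP3, a mitophagy receptor, was at 245 ± 3.81 CPM and 134 ± 8.56 CPM (SD, n = 3 each; -0.87, SE 0.04). For VEGFA, the angiogenic growth factor, the low group was shAHR#3, at 61.5, 61.3 and 65.6 CPM, while shAHR#2 at 105 to 108 CPM and pLKO-GFP at 105 to 112 CPM overlapped (-0.77, SE 0.04). EPAS1, the hypoxia-inducible factor 2 alpha, was higher, at 88.6, 96.0 and 93.8 CPM with shAHR#2 and 194, 193 and 199 CPM with shAHR#3 (1.08, SE 0.04), as were the carbonic anhydrase CA12 (0.97, SE 0.04) and the glucose carrier SLC2A3 (0.62, SE 0.05).

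The list of ATF4 stress response and protein folding had 26 of 47 tested genes lower and 7 higher (median log2 fold change -0.15), where 20.4% and 21.9% of all genes were. CHAC1, which degrades glutathione, was lower by -0.89 (SE 0.15), the lipoprotein receptor VLDLR by -0.80 (SE 0.05) and the chaperone DNAJB9 by -0.61 (SE 0.07). TRIB3 (0.50, SE 0.08) and CEBPB (0.46, SE 0.05), both on chromosome 20, were higher. SRXN1, on the same chromosome, was higher by 0.74 (SE 0.25) and lost its call without shAHR#2 replicate 3 (0.56, adjusted p = 0.0968) or shAHR#3 replicate 3 (0.68, adjusted p = 0.0501). Sterol and fatty acid synthesis was balanced, with 12 of 40 higher and 11 lower (57.5% called, against 42.3% of all genes). Its largest difference was ABCG1, a sterol exporter, at 0.322, 1.09 and 0.759 CPM with shAHR#2 and 4.48, 4.25 and 4.35 CPM with shAHR#3 (2.62, SE 0.26), and NR1H3, the sterol receptor LXR alpha that induces it, was higher by 0.61 (SE 0.10).

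Hairpins are processed as small RNAs, so the genes of that pathway were listed as well. Of 29 tested, 6 were higher and 9 lower (51.7% called, against 42.3% of all genes). The median log2 fold change was -0.03, or 0.01 with scaling by library size alone. DROSHA, the nuclease that cuts primary microRNAs, was at 67.4 ± 0.492 CPM with shAHR#2, 95.2 ± 3.12 CPM with shAHR#3 and 143 ± 3.64 CPM with pLKO-GFP (SD, n = 3 each; 0.50, SE 0.04). DICER1, which cuts hairpins, was at 191 ± 8.08 CPM, 147 ± 4.05 CPM and 114 ± 4.25 CPM. AGO1 was higher by 0.40 (SE 0.06), and the silencing scaffolds TNRC6C and TNRC6A went apart, at 0.61 (SE 0.08) and -0.58 (SE 0.07).

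Of 79 cytosolic ribosomal protein genes, 14 were higher and 11 lower (31.6% called, against 42.3% of all genes; median log2 fold change -0.02), from RPS24 at 0.38 to RPL10 at -0.41. With scaling by library size alone these counts were 22 and 4 and the median was 0.02. Of 61 nuclear-encoded respiratory chain genes, 14 were higher and 5 lower (31.1% called, against 42.3% of all genes). With scaling by library size alone these counts were 24 and 3. NDUFS4 (0.66, SE 0.06) and NDUFA2 (0.50, SE 0.08), the 2 highest, are on chromosome 5, and the lower ones were NDUFV2, NDUFC2, NDUFB10, NDUFS8 and COX5A. NDUFB10 lost its call without shAHR#2 replicate 2 (-0.14, adjusted p = 0.0616) or shAHR#3 replicate 2 (-0.12, adjusted p = 0.110). Of 13 mitochondrially encoded messenger RNAs, 2 were higher and 6 lower (61.5% called, against 42.3% of all genes). MT-ND5 and MT-CO2 were lower by -0.31 (SE 0.04) and -0.27 (SE 0.03) and MT-ND2 higher by 0.22 (SE 0.03), and the mitochondrial ribosomal RNA MT-RNR2 was at 17696 ± 490.2 CPM with shAHR#2 and 13808 ± 688.5 CPM with shAHR#3 (SD, n = 3 each; -0.36, SE 0.04).

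The differences were not spread evenly over the genome. Over all genes tested, 21.9% were higher with shAHR#3 and 20.4% lower. On chromosome 5, 341 of 656 tested genes were higher and 52 lower, with a median log2 fold change of 0.21. Chromosome 20 had 183 of 382 higher and 42 lower (median 0.19), chromosome 10 had 226 of 573 higher and 91 lower (0.13), and chromosome 4 had 178 of 535 higher and 74 lower (0.09). On the remaining chromosomes the medians lay between -0.07 on chromosome 14 and 0.06 on chromosome 22. Against pLKO-GFP, the median of chromosome 5 was -0.48 with shAHR#2 and -0.26 with shAHR#3, and that of chromosome 20 was -0.31 and -0.14. Chromosome 10 gave -0.32 and -0.15, and chromosome 4 gave -0.30 and -0.23. On these 4 chromosomes the typical gene was therefore below the control level with both hairpins, and further below with shAHR#2. They were not alone below the control. Chromosome X was at -0.24 with shAHR#2 and -0.32 with shAHR#3, and chromosome 18 at -0.14 and -0.17, both further below with shAHR#3. Genes on one chromosome are not independent, so these medians are a description, and what moved them was not tested. Among genes named above, ITGA1, RHOBTB3, CDH18, DROSHA, NDUFS4 and NDUFA2 lie on chromosome 5 and were higher with shAHR#3, as were CD74, SPARC and CSF1R, while CSF2, ADAMTS6, ITGA2 and HMMR on the same chromosome were lower.

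**Figure D4:**
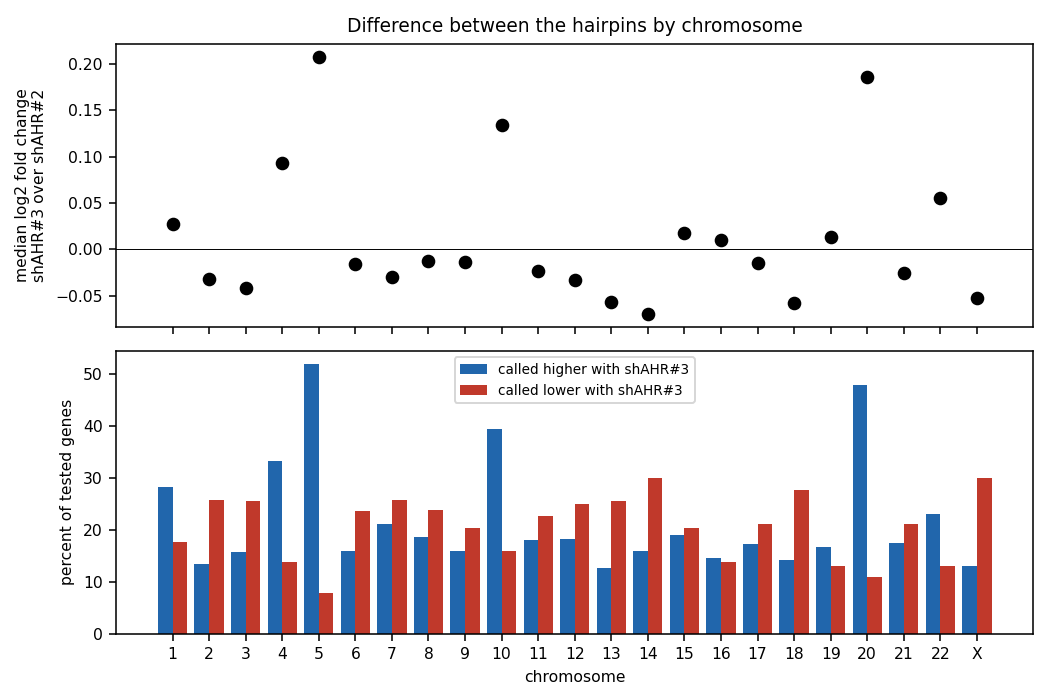
Upper panel, median log2 fold change of shAHR#3 over shAHR#2 (y) over the tested genes of each chromosome (x, 22 autosomes and X). Lower panel, percent of tested genes called higher or lower with shAHR#3 on each; chromosomes 5, 20, 10 and 4 stand above the rest, with medians of 0.21, 0.19, 0.13 and 0.09.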

How the data were processed

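RNA sequencing of 9 MDA-MB-231 libraries (3 each of pLKO-GFP, shAHR#2 and shAHR#3, by genotype label) was analysed from a table of whole-number counts of reads per gene that the authors deposited without normalization. Per the labels and the study's methods, stranded mRNA libraries were made from 500 ng of RNA, sequenced from a single end and aligned with STAR to GRCh38.p13; the submitters' processing notes also name featureCounts. The annotation release and the use of strand are not given in the sources used here, so overlapping, antisense and near-identical genes are uncertain. Hairpin target sequences are not reported, because the study's text numbers its constructs differently from the labels.

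Genes were kept by filterByExpr (minimum count 10, minimum total count 15) and scaled by TMM. The quasi-likelihood test of edgeR 4.0.16 in R 4.3.3 was fitted once to the 9 libraries (mean per group, no block, 6 residual degrees of freedom), with Benjamini-Hochberg adjustment over all genes and a threshold of 0.05. SE is the absolute log2 fold change divided by the square root of F. The common biological coefficient of variation was 2.96%. Replicates differed by more than sampling noise (chi-square of 1.75 to 4.15 for each degree of freedom), so none was counted as a copy. The code was tried on counts simulated from its own model, which cannot show whether the calls in these libraries are sound. Intervals and floors (3 counts) cover counting error only.

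Members and gene lists were chosen with earlier results of these data known. Named genes are AHR, BST2, NEDD9, CD274 and ANXA10, tested members of the AHR pathway list, the largest differences by log2 fold change (6 in each direction), by p and by CPM (5 each) among called genes averaging 1 or more in log2 CPM, up to 3 called genes per list and direction, the 4 most counted genes absent with one hairpin, and cell type markers; other members of the lists that are named were chosen after their values were seen. Some genes that this rule picks are not reported here. Gene positions are those of GENCODE on GRCh38, which held 60463 of the 60649 identifiers, and 10529 tested genes had a RefSeq promoter window (250 bases before to 50 after the start). Alternatives were DESeq2 1.42.0, its size factors, library size alone, no filter, a mean of at least 50 counts, the 6 hairpin libraries alone, the replicate number as a block, each library left out, an adjusted p under 0.01 and an added 2-fold threshold.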

Additional observations from a re-analysis of the deposited data

How the results depend on the processing

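The number of genes called between the hairpins was 6031. It was 5342 with DESeq2, 6084 with DESeq2 size factors, 6036 with library size alone, 5814 with no filter, 5645 with a mean of at least 50 counts, 5922 with the 6 hairpin libraries and 4700 at an adjusted p under 0.01. Leaving out a library gave 5349 (without shAHR#2 replicate 1) to 6037. With the replicate number as a block it was 6107. Between shAHR#2 and shAHR#3, libraries with the same number did not deviate together (correlations of 0.03, -0.0286 and -0.0567). Between pLKO-GFP and the hairpins these correlations were positive but small, from 0.00137 to 0.0752. Libraries with different numbers ranged from -0.0782 to 0.0972, so the numbers were not taken to pair the libraries. Of 172 named genes, 156 kept their direction and their side of the threshold under the alternatives that refit them, up to 16 for each gene, which leave out the stricter p and the 2-fold threshold. Library size alone raised the share of higher genes among calls from 51.8% to 61.7%. The cause was not tested.

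AHR was at 0.13 without shAHR#3 replicate 2 and no longer passed, and at up to 0.24 without shAHR#3 replicate 3. With the 2-fold threshold, 530 genes remained called, 382 higher and 148 lower, against 1691 for shAHR#2 and 961 for shAHR#3 over pLKO-GFP. By list, 10 genes remained for NF-kB, 6 each for integrins and matrix, 5 for interferon-stimulated genes, 4 each for antigen presentation and epithelial and mesenchymal state, and 3 each for checkpoints and annexins. There were 2 each for the AHR pathway, AP-1, p53 and glycolysis, 1 each for sterol synthesis, basal-like and luminal markers, and 0 for the other lists. The respiratory chain had 12 called genes at an adjusted p under 0.01. The blood markers had 0 at a mean of at least 50 counts and 1 to 2 when a library was left out. Genes near 0 with shAHR#2 numbered 5 at a floor of 1 count and 34 at a floor of 10, and those near 0 with shAHR#3 numbered 5 at a floor of 10. With library size alone the chromosome medians were 0.25 (5), 0.22 (20), 0.17 (10), 0.13 (4), 0.094 (22) and -0.032 (14), and chromosome 14 was at -0.063 with a mean of at least 50 counts.

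Among named genes, signs turned for NFE2L2 and TDO2, neither called. With library size alone the medians of the AHR pathway, integrin, small RNA and ribosomal lists turned to between 0.011 and 0.018. NFE2L2 was at -5.8e-05 with DESeq2, -7.3e-05 with its size factors, -0.018 without shAHR#2 replicate 3 and -0.0041 without shAHR#3 replicate 1, within a range of -0.018 to 0.025 over the left-out libraries. TDO2 was at 0.011 with library size alone, 0.014 with the replicate block, and 0.18, 0.19, 0.029 and 0.11 without shAHR#2 replicates 1 and 2 and shAHR#3 replicates 2 and 3, and as low as -0.36 without shAHR#2 replicate 3. Depth limits genes under about 1 CPM, where few counts decide a value.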
